A study of Mus musculus with 11 samples.

Results

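The genes described here are 9 genes listed as beta-catenin targets of the innermost hepatocytes of the liver lobule: Glul, Oat, Slc1a2, Lhpp, Tbx3, Axin2, Lgr5, Rnf43 and Znrf3. In the uninjured sections 8 of the 9 were higher on the side of the central vein, and Znrf3 was not. The 9 were picked by symbol from the gene names deposited with the counts, and all were found among the 31053 genes listed. All 9 also passed the filter on low counts, both in the comparison of times and in the comparison of spots within a section.

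The Wnt pathway works through beta-catenin, a protein that is continually destroyed unless a Wnt ligand binds a Frizzled receptor and its LRP partner. Once spared, beta-catenin enters the nucleus and switches on genes with TCF and LEF factors. In the liver the endothelium of the central vein secretes Wnt ligands and the R-spondin Rspo3, so the pathway is most active in the hepatocytes that touch that vein, and these cells make glutamine from ammonia. Several targets act back on the pathway: Axin2 belongs to the complex that destroys beta-catenin, Rnf43 and Znrf3 remove Frizzled from the cell surface, and Lgr5 binds R-spondins, which hold Rnf43 and Znrf3 in check.

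Spatial RNA was measured with Visium, which captures polyadenylated RNA on a grid of barcoded spots, in 11 mouse liver sections, 3 of them uninjured and 8 taken after paracetamol (acetaminophen, APAP), an overdose of which kills hepatocytes around the central vein. The labels name 3 uninjured sections, numbered 2, 3 and 4 and called 0 h here, and sections taken after APAP: 2 for 24 h and 2 for 36 h, each pair lettered A and B, and 4 for 48 h, lettered A through D. By the study's methods the animals were C57BL/6JCrl mice of 8 to 12 weeks, male unless stated otherwise, that had fasted before a single intraperitoneal injection. Those methods name 1 mouse per time point for this assay, so n counts sections, each p covers only the spread between sections, and mouse, time and any batch cannot be told apart.

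Sections held 31292663 to 67045372 unique molecular identifiers (UMIs, each a counted molecule) in 1490 to 3466 spots, and 10.7 to 24.9% of all UMIs lay off the tissue. A spot is 55 µm wide and mixes several cells. Levels are given in CPM, UMIs as counts per 1000000 of a section's total after scaling by the trimmed mean of M-values (TMM), and carry no correction for gene length. The 6 hepatocyte markers summed to 115603 to 120767 CPM at 0 h and to 77780 to 94537 CPM at 48 h. TMM factors were 0.783 to 0.811 at 0 h and 1.14 to 1.17 at 48 h, so this fall rests on the scaling. The 6 macrophage markers summed to 575 to 623 CPM and to 835 to 1509 CPM at these times, and the 7 mesenchymal markers to 250 to 286 CPM and to 674 to 1469 CPM.

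Among the members, the genes for enzymes and a transporter fell and stayed low through 48 h. Glul, Oat, Slc1a2 and Lhpp were lower than at 0 h at every later time, and at 48 h their means were 7.43%, 12.7%, 1.67% and 15.2% of the 0 h means. Axin2 and Lgr5, which act in the pathway itself, fell at 24 h and were higher at 48 h than at 24 h. Over whole sections Rnf43 and Znrf3 passed no test at 24 h or 36 h against 0 h.

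Glul (ENSMUSG00000026473, GRCm38 chr1:153899944-153909723, plus strand) encodes glutamine synthetase, the enzyme by which the innermost hepatocytes bind ammonia. Its level was 254, 239 and 230 CPM in the 0 h sections, 26.7 and 14.9 CPM at 24 h, 21.1 and 43.0 CPM at 36 h, and 14.4, 14.0, 18.7 and 24.5 CPM at 48 h. Every injured section lay far below every 0 h section, and the injured times overlapped one another. The mean fell from 241 ± 11.98 CPM (SD, n = 3) to 20.8 ± 8.29 CPM at 24 h (n = 2), a log2 fold change of -3.53 ± 0.39 (SE, adjusted p = 0.000123 by edgeR's quasi-likelihood test with Benjamini-Hochberg adjustment, the test behind every adjusted p here). At 48 h it was 17.9 ± 4.90 CPM (n = 4), a log2 fold change of -3.75 ± 0.30 (adjusted p = 2.51e-05).

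Oat (ENSMUSG00000030934, chr7:132557478-132576398, minus strand) encodes ornithine aminotransferase, which turns ornithine towards glutamate. Its level was 307, 274 and 233 CPM at 0 h, 24.6 and 30.1 CPM at 24 h, 26.2 and 33.4 CPM at 36 h, and 36.5, 30.2, 35.0 and 36.6 CPM at 48 h. The 8 injured sections fell in a narrow band that did not reach the 0 h sections. The log2 fold changes against 0 h were -3.31 ± 0.18 at 24 h, -3.19 at 36 h and -2.97 ± 0.14 at 48 h (adjusted p = 5.9e-06 and 1.39e-06 at 24 h and 48 h). Oat lies within the annotated span of Fgfr2 on the same strand, so intronic reads of Fgfr2 there cannot be told apart from reads of Oat; Glul and Rnf43 likewise overlap Mir8114 and 1110028F11Rik on their own strands.

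Slc1a2 (ENSMUSG00000005089, chr2:102658659-102790784, plus strand) encodes a sodium-driven transporter that takes glutamate into the cell. Its level was 44.8, 40.3 and 40.1 CPM at 0 h, 0.150 and 0.351 CPM at 24 h, 0.521 and 0.457 CPM at 36 h, and 0.507, 0.503, 0.760 and 1.03 CPM at 48 h. Counts went from 2037, 2192 and 1419 UMIs in the 0 h sections to 7 and 11 UMIs in the 24 h sections, the steepest fall of any member. At 24 h the log2 fold change was -7.46 ± 0.37 (adjusted p = 3.49e-06) and the mean was 0.601% of the 0 h mean. Slc1a2 was higher at 48 h than at 24 h, by 1.58 ± 0.41 on the log2 scale (adjusted p = 0.0128), while its mean of 0.699 ± 0.249 CPM (n = 4) remained below every 0 h section. Without section A at 24 h, that second difference was 1.002 (adjusted p = 0.178).

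Lhpp (ENSMUSG00000030946, chr7:132610638-132706420, plus strand) encodes a phosphatase that acts on phosphohistidine. It is the neighbour of Oat, with 34.24 kb between them on opposite strands. Its level was 32.4, 34.8 and 29.6 CPM at 0 h, 6.36 and 6.99 CPM at 24 h, 5.997 and 4.25 CPM at 36 h, and 4.85, 3.64, 5.09 and 6.01 CPM at 48 h. No injured section reached a 0 h section, and the 48 h sections lay below those of 24 h without passing the test. Against 0 h the log2 fold changes were -2.28 ± 0.21 at 24 h and -2.72 ± 0.16 at 48 h (adjusted p = 4.63e-05 and 8.01e-06).

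Sequences upstream of listed starts of Glul, Oat and Slc1a2 are shown because these 3 genes fell at every later time and a window was at hand for each. RefSeq promoter windows (GRCm38.p6, 250 bases before the listed start) were at hand for 5 of the 9 members, and the Slc1a2 run ends before an annotated untranslated exon. The start listed for Slc1a2 is an internal one, inside the gene's span given above, so its window is not the sequence ahead of the whole gene. Runs are 5′ to 3′ on the gene's strand in lower case, with capitals marking a TCF/LEF word. The 3 runs shown start and end at chr1:153899679-153899928 (plus strand), chr7:132576399-132576648 (minus strand) and chr2:102706188-102706355 (plus strand). The full Slc1a2 window ends at chr2:102706437.
Glul: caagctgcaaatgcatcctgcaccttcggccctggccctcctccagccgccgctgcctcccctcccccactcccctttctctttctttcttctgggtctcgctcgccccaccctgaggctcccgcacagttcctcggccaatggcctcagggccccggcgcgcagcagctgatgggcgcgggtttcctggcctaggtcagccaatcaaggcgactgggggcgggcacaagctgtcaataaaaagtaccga
Oat: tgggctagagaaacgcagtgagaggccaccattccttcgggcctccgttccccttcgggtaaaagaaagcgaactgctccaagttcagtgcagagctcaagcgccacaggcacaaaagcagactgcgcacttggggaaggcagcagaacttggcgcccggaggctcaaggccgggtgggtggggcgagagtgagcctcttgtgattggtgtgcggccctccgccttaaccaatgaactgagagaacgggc
Slc1a2: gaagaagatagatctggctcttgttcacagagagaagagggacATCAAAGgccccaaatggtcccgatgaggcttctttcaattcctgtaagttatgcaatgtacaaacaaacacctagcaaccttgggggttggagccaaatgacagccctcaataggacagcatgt
The words searched on both strands were CTTTGAA, the word CTTTGAT, the word CTTTGTA and, last, CTTTGTT. Of the 5 members with a window, Slc1a2 held 1 match, ATCAAAG, the reverse strand of CTTTGAT, at position -207 from that internal start. Of all 32851 windows of the same length, 14.8% held at least 1 of these words. A match is a run of letters and not a measured binding site, and no match says only that the words are not in this window.

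Tbx3 (ENSMUSG00000018604, chr5:119670669-119684724, plus strand) encodes a T-box transcription factor of liver development. Its level was 8.34, 9.57 and 7.23 CPM at 0 h, 7.42 and 3.06 CPM at 24 h, 3.33 and 3.48 CPM at 36 h, and 2.91, 4.53, 4.93 and 7.92 CPM at 48 h. The 24 h and 48 h sections spread into the range of 0 h, and only those of 36 h lay wholly below it. Tbx3 was lower at 36 h, with a log2 fold change of -1.30 ± 0.43 (adjusted p = 0.0445). The changes at 24 h (-0.66 ± 0.41) and 48 h (-0.72 ± 0.33) did not pass (adjusted p = 0.221 and 0.102). The 36 h call was lost in 7 of the 11 fits that left out a section, where the adjusted p reached 0.164, on total-count scaling (-0.87, adjusted p = 0.114) and with no filter on low counts (adjusted p = 0.0629), and the 24 h and 48 h changes passed without section A at 24 h (-1.45, adjusted p = 0.046) and section D at 48 h (-1.02, adjusted p = 0.0218).

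Axin2 (ENSMUSG00000000142, chr11:108920349-108950783, plus strand) is a scaffold of the beta-catenin destruction complex and a standard readout of the pathway. Its level was 2.29, 2.80 and 2.49 CPM at 0 h, 0.688 and 0.351 CPM at 24 h, 0.637 and 1.08 CPM at 36 h, and 2.20, 2.42, 3.20 and 2.93 CPM at 48 h. The 24 h and 36 h sections lay below all others, and the 48 h sections overlapped those of 0 h. The log2 fold change of Axin2 against 0 h was -2.24 ± 0.34 for 24 h (adjusted p = 0.000551) and -1.55 ± 0.32 for 36 h (adjusted p = 0.00611). At 48 h it was higher than at 24 h, by 2.33 ± 0.33 (adjusted p = 0.000802), and higher than at 36 h, by 1.64 ± 0.31 (adjusted p = 0.0252). The difference between 48 h and 0 h was 0.09 ± 0.24 (adjusted p = 0.78), and on total-count scaling it was 0.62 (adjusted p = 0.0435). The call between 48 h and 36 h was lost without section A at 36 h (1.31, adjusted p = 0.0874), section B at 48 h (adjusted p = 0.0582) or section C at 48 h (adjusted p = 0.0608).

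Lgr5 (ENSMUSG00000020140, chr10:115450311-115587780, minus strand) encodes a receptor for R-spondins. Its level was 3.06, 2.52 and 2.54 CPM at 0 h, 0.0860 and 0.255 CPM at 24 h, 0.521 and 0.428 CPM at 36 h, and 1.56, 1.79, 1.38 and 1.08 CPM at 48 h. The 4 times did not overlap in order from 24 h through 36 h and 48 h to 0 h, although only 4 and 8 UMIs were counted in the 24 h sections. The 24 h change of Lgr5 from 0 h was -4.07 ± 0.42 on the log2 scale (adjusted p = 7.17e-05). It was higher at 48 h than at 24 h, by 3.17 ± 0.41 (adjusted p = 0.000551), and was still lower than at 0 h, by -0.90 ± 0.25 (adjusted p = 0.0134), with a mean 53.7% of the 0 h mean. That last difference was -0.81 (adjusted p = 0.0607) without section 2 at 0 h and -0.37 (adjusted p = 0.207) on total-count scaling. The steps from 24 h to 36 h (1.56 ± 0.48, adjusted p = 0.0499) and from 36 h to 48 h (1.61 ± 0.34, adjusted p = 0.0352) were each lost in most fits that left out a section, in 9 and 7 of 11.

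Rnf43 (ENSMUSG00000034177, chr11:87662722-87735539, plus strand) and Znrf3 (ENSMUSG00000041961, chr11:5276324-5444847, minus strand) encode the related ubiquitin ligases that clear Frizzled. Rnf43 lay at 8.36, 6.26 and 5.14 CPM at 0 h, 7.44 and 5.97 CPM at 24 h, 7.36 and 5.76 CPM at 36 h, and 9.87, 14.7, 10.6 and 7.87 CPM at 48 h. Its highest value was section B at 48 h, and the 48 h and 0 h sections overlapped at their edges. Rnf43 was higher at 48 h than at 0 h, by 0.70 ± 0.23 on the log2 scale (adjusted p = 0.0267), a call lost without section 3 at 0 h (0.66, adjusted p = 0.0895), section 4 at 0 h (0.55, adjusted p = 0.108) or section B at 48 h (0.52, adjusted p = 0.0642). Znrf3 lay at 3.63, 3.404 and 2.29 CPM at 0 h, 1.78 and 2.78 CPM at 24 h, 2.72 and 3.45 CPM at 36 h, and 3.60, 3.30, 3.21 and 3.18 CPM at 48 h. Its groups overlapped at every time against 0 h, with log2 differences of -0.46 ± 0.25 at 24 h and 0.09 at 48 h (adjusted p = 0.161 and 0.734), the latter 0.62 (adjusted p = 0.0192) on total-count scaling.

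**Figure D1:**
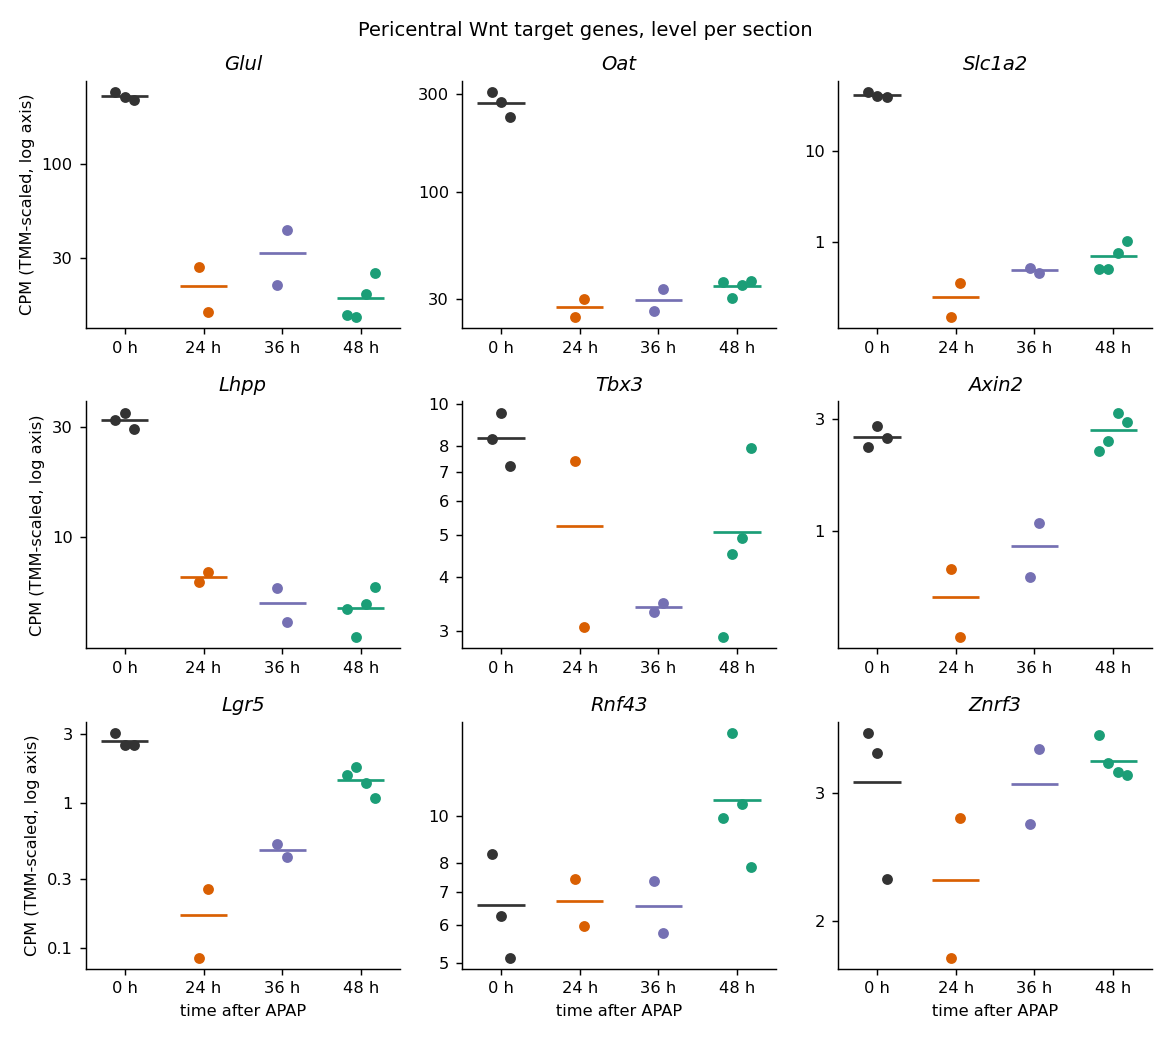
Level of each member in every section, in CPM on a log axis with its own range per gene, by time after APAP; points are sections and lines are means. Glul, Oat, Slc1a2 and Lhpp lie far below 0 h at all later times, Slc1a2 at 0.150 to 1.03 CPM against 40.1 to 44.8 CPM, whereas Axin2 at 48 h (2.20 to 3.20 CPM) overlaps 0 h (2.29 to 2.80 CPM).

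Counted together, 6 of 9 members were lower at 24 h than at 0 h, where 18.6% of all genes tested were lower and 23.1% were higher. At 36 h 7 of 9 were lower, against 12.4% of all genes lower and 16.8% higher. At 48 h 5 of 9 were lower and 1 was higher, against 20.9% and 23.3% of all genes. The median log2 fold change over the members was -2.28, -2.51 and -0.90 at the 3 times, and over all genes 0.05, 0.05 and 0.01. Groups did not overlap, with the injured sections lower, for 6, 7 and 5 members, against 32.1%, 26.2% and 26.6% of all genes. The 3 comparisons share the 0 h sections.

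From 24 h to 48 h 3 of 9 members were higher (Slc1a2, Axin2 and Lgr5), against 16.3% of all genes. Glul and Oat did not pass (adjusted p = 0.622 and 0.11). On total-count scaling Oat (0.54, adjusted p = 0.0181), Rnf43 (0.88, adjusted p = 0.028) and Znrf3 (0.76, adjusted p = 0.0299) also passed. From 24 h to 36 h 1 of 9 was higher (Lgr5), against 7.05% of all genes. From 36 h to 48 h 2 of 9 were higher (Axin2 and Lgr5), against 1.62% of all genes. The 48 h sections lay wholly above those of 24 h for 6 members (Oat, Slc1a2, Axin2, Lgr5, Rnf43 and Znrf3), against 26.7% of all genes, and wholly above those of 36 h for 3 (Axin2, Lgr5 and Rnf43), against 12.8%. Whether Axin2 and Lgr5 differed in course from Glul, Oat and Lhpp was not tested.

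In bulk sums such as these, fewer pericentral hepatocytes and less RNA per cell cannot be told apart. When the sums were restricted to spots whose hepatocyte marker score exceeded the lower 5% of 0 h spots, which kept 88.9 to 99.6% of spots, the log2 fold changes of Glul against 0 h were -3.45, -2.82 and -3.75. Those of Oat were -3.29, -3.14 and -2.997, and those of Slc1a2 were -7.36, -6.32 and -5.83, in the order 24 h, 36 h and 48 h. So few spots were left out that the sums could change little, and general hepatocyte markers do not mark the pericentral cells, so these values do not bear on a loss of those cells. With TMM scaling, hepatocyte markers were lower for 4 of 6 genes at 24 h and at 48 h, against 18.6% and 20.9% of all genes.

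Within a section the position of a spot was read from the study's 12 mouse portal genes, none of them a member: spots were ranked by the mean level of these genes, and the lowest and highest quintiles were called portal-poor and portal-rich. At 0 h 8 of 9 members were higher in the portal-poor spots, the side of the central vein, where 6.66% of all genes tested were higher. Slc1a2 differed most, with 96.7, 95.04 and 95.4 CPM of a quintile's own UMIs against 12.2, 11.1 and 8.77 CPM in the portal-rich spots of sections 2, 3 and 4. Its ratio was 7.93 to 10.9 in the 3 sections, and the log2 difference was 3.10 ± 0.10. Glul, Oat, Lhpp, Tbx3, Axin2 and Lgr5 differed by 2.52 to 2.93 on the log2 scale.

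Of the ligases that remove Frizzled, 1 passed. Rnf43 was higher in portal-poor spots at 0 h by 1.55 ± 0.15, a ratio of 2.92 to 3.54 over the sections. Znrf3 differed by 0.03 ± 0.22 and had a ratio of 1.03 to 1.09, with 92 UMIs in the portal-poor and 118 in the portal-rich spots. All members except Znrf3 were highest in the portal-poor quintile in 3 of 3 sections.

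**Figure D2:**
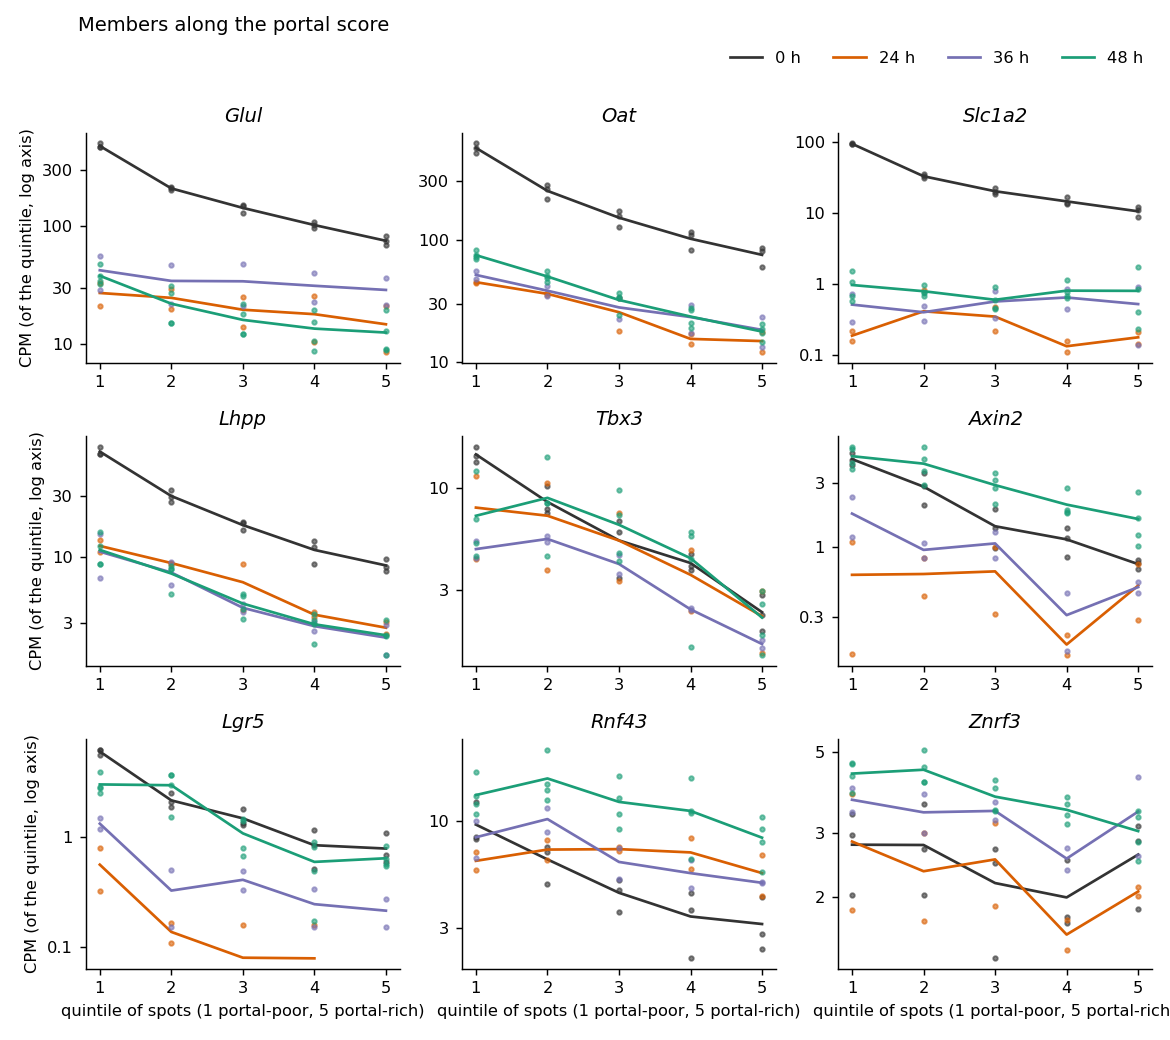
Level of each member along 5 quintiles of spots from portal-poor (1) to portal-rich (5), in CPM of the quintile's own UMIs on a log axis; points are sections, lines are means per time, and zeros (Lgr5 and Slc1a2 in some quintiles at 24 h) cannot be drawn. At 0 h Slc1a2 falls from 95.04 to 96.7 CPM down to 8.77 to 12.2 CPM, and Znrf3 is nearly level.

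The portal genes used to rank the spots themselves changed after APAP. Over whole sections Cyp2f2 and Hal were among those lower at 24 h, with log2 fold changes of -2.57 and -2.23. Only Hpx and Hsd17b13 passed as higher, by 1.36 and 0.63. Whether a quintile after APAP covers the same part of the lobule as in uninjured sections was not tested. After APAP the contrast between these quintiles shrank for most members. At 24 h 5 of 9 were higher in portal-poor spots, against 15.6% of all genes: Oat by 1.24, Lhpp by 1.80, Tbx3 by 1.48 and Glul by 0.50 on the log2 scale, and Lgr5. Lgr5 had 8 UMIs in the portal-poor and 0 in the portal-rich spots of both sections, which is at least 2.81-fold higher against a floor of 3 counts over the group. Slc1a2 had 3 UMIs in each, so no difference was detectable at this depth. The Glul call was lost without section B (0.30, adjusted p = 0.268), the Tbx3 call without section A (1.16, adjusted p = 0.131), and the Lgr5 call without either.

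At 36 h 4 of 9 were higher in portal-poor spots, against 17.2% of all genes: Oat by 1.08, Lhpp by 1.80, Tbx3 by 1.199 and Lgr5 by 2.15. Glul differed by 0.13 and Axin2 by 1.38 (adjusted p = 0.0697 for Axin2). Calls were lost for Lhpp without section A (0.77, adjusted p = 0.192), for Tbx3 without section A or B (adjusted p = 0.131 and 0.063), and for Lgr5 without section A (1.60, adjusted p = 0.255) or B (2.83, adjusted p = 0.0632). On total-count scaling the median over all genes moved to 0.42, and Glul (0.54), Axin2 (1.80) and Rnf43 (0.73) were also called higher.

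At 48 h 6 of 9 were higher in portal-poor spots, against 36.7% of all genes, so such a call was common at that time. The log2 differences were 1.08 for Glul, 1.54 for Oat, 1.70 for Lhpp, 1.18 for Tbx3, 1.05 for Axin2 and 1.69 for Lgr5. The ratios that follow use each quintile's own UMIs without TMM, so they are on another scale than these log2 differences. Over the sections the ratio of portal-poor to portal-rich CPM was 3.67 to 4.76 for Oat, against 6.95 to 8.64 at 0 h, and 4.54 to 4.93 for Lgr5, against 5.78 to 10.5. For Axin2 it was 2.18 to 5.19, against 5.84 to 6.22 at 0 h, and for Lhpp 2.82 to 6.61, against 7.80 to 8.35. Slc1a2 (-0.27), Znrf3 (-0.01) and Rnf43 (0.17, adjusted p = 0.178) did not pass. Glul stood at 32.2, 34.6, 37.7 and 47.8 CPM in the portal-poor spots of sections A to D and at 8.95, 9.10, 12.98 and 19.4 CPM in the portal-rich spots. The lower level thus held at both ends of the axis, since the 0 h sections had 464 to 501 CPM and 69.4 to 81.9 CPM there. On total-count scaling Rnf43 (0.70, adjusted p = 2.57e-06) and Znrf3 (0.51, adjusted p = 0.0106) were also called higher, with the median over all genes at 0.58.

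The portal-poor spots after APAP held other cells as well. At 48 h their 6 macrophage markers summed to 2251 to 4476 CPM, against 450 to 790 CPM in portal-rich spots, and 6 of 6 passed the test as higher. The 7 mesenchymal markers summed to 1774 to 4014 CPM against 338 to 668 CPM, and 7 of 7 were higher. The 6 hepatocyte markers summed to 54250 to 72970 CPM against 105500 to 124700 CPM, and 6 of 6 were lower. Of all genes, 36.7% were higher and 31.7% lower in portal-poor spots at 48 h. At 24 h the macrophage markers summed to 957 to 1001 CPM in portal-poor and 426 to 595 CPM in portal-rich spots. At 36 h these sums were 1103 to 1394 CPM and 432 to 453 CPM. At 0 h the macrophage markers summed to 369 to 410 CPM in portal-poor spots. The part of these cells in the shrunken contrast was not tested.

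Set against the contrast at 0 h in the same fit, the contrast was smaller for 6 of 9 members at 24 h, for 5 at 36 h and for 8 at 48 h, where 12.4%, 14.5% and 25% of all genes were called in that direction. Those shares are no like measure, since 8 of 9 members had a contrast at 0 h to lose, against 6.66% of all genes. Most of the 16 other pericentral hepatocyte genes, fixed by list, were also called in that direction at 48 h. For Glul the change in contrast was -2.10, -2.47 and -1.52 on the log2 scale at the 3 times, and for Oat it was -1.61, -1.76 and -1.30. For Rnf43, whose level over the whole section passed no test as lower, it was -1.75, -1.23 and -1.38. For Slc1a2 it was -3.47 at 36 h, where the call was lost without section A at 36 h (-1.21, adjusted p = 0.707), and -3.37 at 48 h. Lgr5 passed at 48 h, with a change of -1.16 (adjusted p = 0.0189) that did not pass without section 3 or 4 at 0 h (adjusted p = 0.0599 and 0.0576), on total-count scaling (-0.69, adjusted p = 0.136), on an axis of central minus portal genes (-0.53, adjusted p = 0.364) or with DESeq2 (adjusted p = 0.0673).

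**Figure D3:**
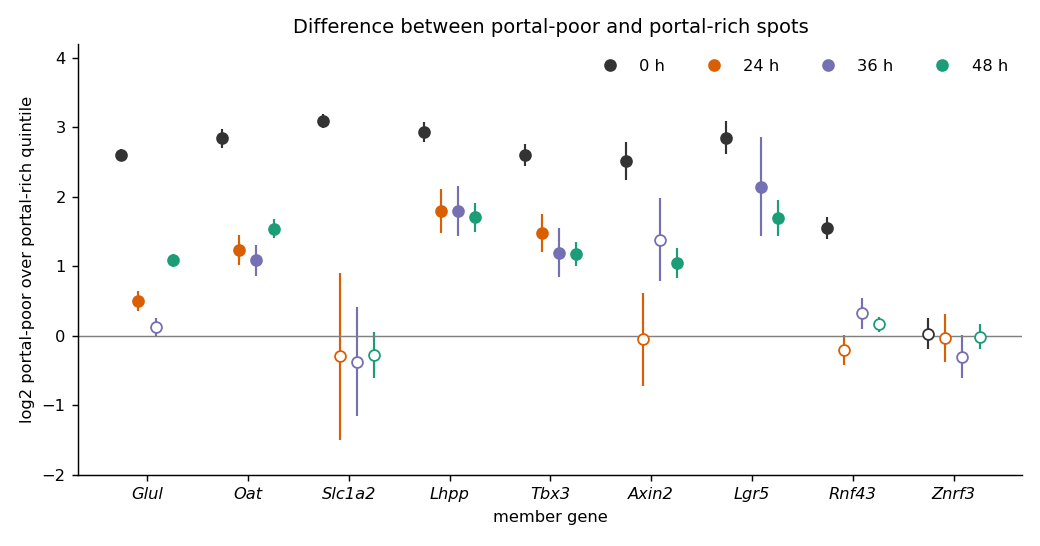
Log2 difference between portal-poor and portal-rich quintiles for each member and time, with SE from the edgeR fit; filled points passed at an adjusted p under 0.05, open points did not, and Lgr5 at 24 h, with 0 UMIs in portal-rich spots, is not drawn. At 0 h 8 of 9 members lie at 1.55 or above and Znrf3 lies at 0.03; Slc1a2 after APAP lies around 0.

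The quintile in which a member peaked also moved. At 48 h Rnf43 was highest in the second quintile in 4 of 4 sections, where at 0 h it was highest in the portal-poor quintile in 3 of 3. Tbx3 was highest in the second quintile in 3 sections and in the middle quintile in 1. Glul, Oat and Lhpp were highest in the portal-poor quintile in 4 of 4 sections at 48 h. These are descriptions with no test.

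Around the spots richest in Glul, the other members dropped off within a few grid steps at 0 h. Spots in the top decile of a section by Glul were taken as centres, and levels were averaged 1, 2 and 3 or more grid steps (100 µm each) away. Slc1a2 fell from 187 CPM in these spots to 30.8 CPM at 1 step, 14.8 CPM at 2 steps and 12.9 CPM beyond, means over 3 sections. Lgr5, at 8.48 CPM in the centre, was 8.05 times its far level, and Oat, Lhpp, Tbx3 and Axin2 were 5.55 to 8.18 times theirs. Rnf43 was 3.41 times and Znrf3 1.39 times its far level.

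At 48 h the same spots were barely set apart. Oat stood at 55.2 CPM in the centre and 33.3 CPM beyond, and Lhpp at 7.36 CPM and 4.19 CPM. Slc1a2 stood at 0.857 CPM and 0.812 CPM. With so few Glul UMIs per spot at that time, the choice of the top decile rests on small counts.

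Spots as rich in Glul as the top of the uninjured lobule were almost absent after APAP. Each spot was thinned to 5000 UMIs, and a spot was counted when its Glul count exceeded the 90th percentile of 0 h spots. In the 0 h sections 2, 3 and 4, 223 of 1930, 310 of 2653 and 202 of 2069 spots did so, which is 11.6%, 11.7% and 9.76%. At 24 h 0 of 2516 and 0 of 1616 spots did so, which allows shares of up to 0.119% and 0.186%. The other 6 injured sections held 0 to 5 such spots each, at most 0.25%.

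Glul was also found in fewer spots at all. At least 1 Glul UMI in 5000 was counted in 48.0 to 52.1% of spots at 0 h, from 31.8 to 37.0% of portal-rich spots to 69.3 to 72.3% of portal-poor ones, and in 7.09 to 19.7% of spots after APAP. The part of free RNA in the portal-rich share was not tested. For Slc1a2 the share was 12.9 to 16.0% of spots at 0 h and 0.119 to 0.583% after APAP.

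For Oat the shares above the 0 h 90th percentile were 8.13%, 6.86% and 5.36% at 0 h and 0% in every injured section except A at 48 h, with 1 of 3343 spots. The difference of means between 8 injured and 3 uninjured sections was -10.9 percentage points for Glul and -6.78 for Oat (exact two-sided permutation test, p = 0.01212 each, the smallest that 8 against 3 sections can give, and 0.01212 after adjustment over the 5 tests of this kind). Because the cut came from the 0 h spots themselves, their share was set by the rule. With the level of both genes so much lower after APAP, the low injured shares largely restate that fall. These p-values are therefore no separate support for it, and the tests pooled the injured times and took sections as units. The intervals and floors of such shares cover counting error only.

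**Figure D4:**
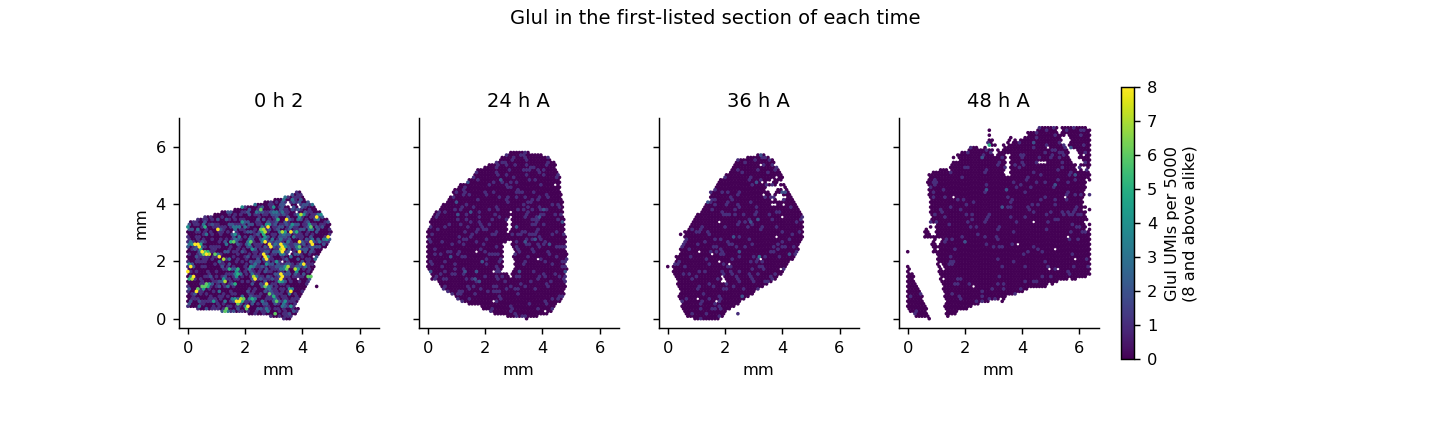
Glul in each spot of the first-listed section of each time, as UMIs per 5000, with positions in mm and values of 8 and above drawn alike. Section 2 at 0 h holds strings and clusters of Glul-rich spots, and section A at 24 h, 36 h and 48 h has 0, 1 and 1 spots above the 0 h 90th percentile.

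The likeness of neighbouring spots was lower after APAP. Pearson's r between a spot's Glul and the mean of its grid neighbours was 0.352 to 0.424 in the 0 h sections and -0.000591 to 0.065 in the 8 injured sections. For Oat it was 0.409 to 0.446 at 0 h and -0.00745 to 0.105 after APAP, and for Slc1a2 it was 0.154 to 0.183 and -0.0142 to 0.0839. The differences of means were -0.35, -0.367 and -0.167 (exact two-sided permutation test, p = 0.01212 each). A gene with few UMIs per spot gives a low r by counting error alone, and the level of all 3 genes fell, so these values do not show whether the grouping into patches itself changed. At 48 h Oat kept an r of 0.0816 to 0.105 in its 4 sections.

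At 0 h the genes that varied most like Glul across spots were other pericentral genes. Among 5863 genes at 10 CPM or more, the highest mean r over the 3 sections was that of Oat (0.41), and Slc1a2 (0.344) was in the fourth place. Between and after them came the major urinary protein gene Mup17 (0.405) and the cytochrome P450 genes Cyp2e1 (0.381) and Cyp2a5 (0.335). Mup11, Mup9, Cyp1a2, Rgn, Cyp2c37, Cyp2c29 and Cyp3a11 followed at 0.267 to 0.330. At 24 h and 36 h no gene exceeded 0.08. At 48 h the 10 non-members with the highest mean r over 4 sections stood at 0.105 to 0.122, among them Ftl1, Tmsb4x, Tmsb10 and the macrophage genes Lyz2, Gpnmb and Lgals3, while Oat stood at 0.0205 and the hepatocyte genes Alb and Mug1 at -0.127 and -0.13. Such weak values in sparse counts are no finding. These points share a library and its depth.

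The ligand genes Wnt2, Wnt9b and Rspo3 fell at 24 h and were higher at 48 h than at 24 h. Of 8 Wnt ligands and R-spondins tested, 3 were lower and 1 was higher at 24 h, against 18.6% and 23.1% of all genes. The median log2 change over the 8 was -0.18. Wnt2, secreted by liver endothelium, fell from 7.25 ± 0.786 CPM (n = 3) to 1.41 ± 0.0483 CPM (n = 2), a log2 change of -2.36 (adjusted p = 0.000486). Rspo3 fell from 5.94 to 2.53 CPM, by 1.24 on the log2 scale (adjusted p = 0.00976, and 0.0828 without section A at 24 h). Wnt9b went from 89 UMIs over the 0 h sections to 7 UMIs over the 24 h sections, and its call was lost without section B at 24 h (adjusted p = 0.103).

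At 48 h Wnt2, Rspo3 and Wnt9b were all higher than at 24 h, by 2.02, 1.62 and 4.21 on the log2 scale (adjusted p = 0.00171, 0.00317 and 0.00281). Wnt2 stood at 5.70 ± 1.61 CPM and Rspo3 at 7.74 ± 1.198 CPM (n = 4). Against 0 h Wnt2 differed by -0.35 (adjusted p = 0.284), which was 0.18 on total-count scaling, and Rspo3 by 0.38, which was 0.91 (adjusted p = 0.00626) on total-count scaling. Wnt9b was called higher at 48 h than at 0 h, at 1.67 ± 0.605 CPM (n = 4) against 0.675 ± 0.126 CPM (n = 3). That call was lost in the spots kept by hepatocyte marker score (1.09, adjusted p = 0.0906). All 3 were higher in portal-poor spots at 0 h and at 48 h, Wnt2 by 2.28 and 2.21 and Rspo3 by 2.502 and 2.43 on the log2 scale.

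The noncanonical ligand Wnt5a was higher than at 0 h at 24 h (1.57 against 0.511 CPM) and at 48 h (1.39 CPM), by 1.60 and 1.42 on the log2 scale (adjusted p = 0.0126 and 0.0107), the first lost without section A at 24 h (adjusted p = 0.0727). Of 15 receptor and secretion genes tested, 5 were lower at 24 h, against 18.6% of all genes, with a median log2 change of -0.70. Among the 5 was Lgr4, another R-spondin receptor, at 15.9 against 26.0 CPM (adjusted p = 0.00638, and 0.0772 on total-count scaling). At 48 h 3 of the 15 were higher and 3 were lower, against 23.3% and 20.9% of all genes. Wls, which carries Wnt proteins to the cell surface, was higher at 48 h, at 13.4 ± 3.35 against 5.31 CPM (log2 1.33, adjusted p = 0.00297).

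Of 8 inhibitors tested, 3 were lower and 1 was higher at 24 h, against 18.6% and 23.1% of all genes. Their median log2 change was -1.01, and 5 of the 8 were higher at 48 h than at 24 h, against 16.3% of all genes. Notum, an enzyme that strips the lipid from Wnt, stood at 30.0 ± 2.73 CPM at 0 h, 6.89 ± 4.87 CPM at 24 h, 9.80 ± 2.24 CPM at 36 h and 26.3 ± 6.60 CPM at 48 h. It was lower at 24 h and 36 h (log2 -2.10 and -1.61, adjusted p = 0.00252 and 0.0141) and higher at 48 h than at 24 h (1.91, adjusted p = 0.00502). The 36 h call was lost without section B at 36 h (adjusted p = 0.107). Nkd1, which dampens Dishevelled, went from 4.88 to 1.86 CPM at 24 h and to 4.36 CPM at 48 h. Dkk3 was higher at 48 h than at 0 h, at 5.02 against 1.38 CPM (log2 1.86, adjusted p = 0.00279).

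For Notum, the contrast between portal-poor and portal-rich spots differed between 0 h and 48 h. Its ratio of portal-poor to portal-rich CPM was 2.70 to 3.06 in the 0 h sections and 0.737 to 1.2 in the 48 h sections. The change in contrast from 0 h to 48 h was -1.93 on the log2 scale (adjusted p = 3.01e-10). Whether Notum at 48 h was itself higher or lower in portal-poor spots changed with the settings: it was -0.48 with TMM, 0.04 on total-count scaling and 0.53 when spots were ranked by central minus portal genes. For Nkd1 the 0 h ratios were 1.75 to 3.19, those of 48 h were 2.95 to 3.32, and the change in contrast was -0.15 ± 0.27 (adjusted p = 0.675).

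**Figure D5:**
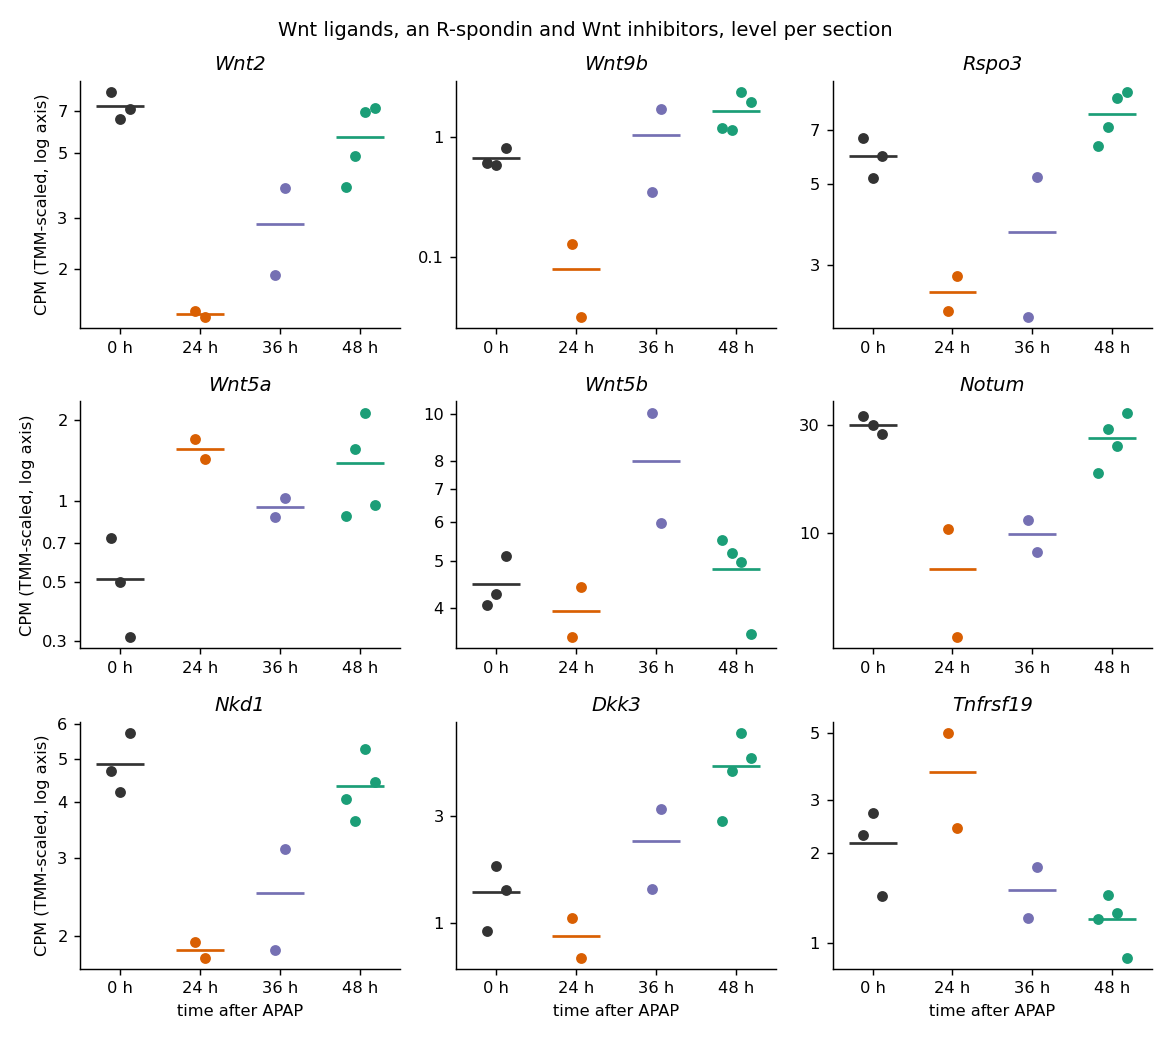
Level in every section of 3 ligands of the central vein (Wnt2, Wnt9b, Rspo3), 2 other ligands (Wnt5a, Wnt5b) and 4 genes from the list of inhibitors (Notum, Nkd1, Dkk3, Tnfrsf19), in CPM on a log axis with its own range per gene; points are sections and lines are means. Wnt2 lies at 1.37 to 1.44 CPM at 24 h against 6.55 to 8.10 CPM at 0 h and 3.82 to 7.12 CPM at 48 h.

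The other pericentral hepatocyte genes, 16 fixed by list, were also lower in most cases at the level of the section. At 24 h, 36 h and 48 h 10, 11 and 10 of 16 were lower than at 0 h, and 1, 1 and 2 were higher, with median log2 changes of -1.72, -1.17 and -0.95. For this and the next 3 lists, the shares of all genes were 18.6%, 12.4% and 20.9% lower and 23.1%, 16.8% and 23.3% higher. A list of 10 genes tested joined the complex that breaks down beta-catenin with the Dishevelled genes Dvl1, Dvl2 and Dvl3. Of these, 2, 1 and 1 were higher and 0, 0 and 1 lower. Of the 10 of the transcription complex 1, 0 and 1 were higher and 2, 1 and 2 lower. Of 14 periportal hepatocyte genes, the other end of the lobule, 10, 5 and 5 were lower. Cyp2e1, which turns APAP into its toxic product, stood at 2428 ± 391 CPM at 0 h and 531 ± 43.5 CPM at 48 h (log2 -2.19, adjusted p = 2.15e-05), and Rhbg, an ammonium transporter, at 9.29 and 1.08 CPM (log2 -3.10). Cyp2a5 ran the other way at 24 h, at 447 against 92.4 CPM (log2 2.27, adjusted p = 0.00838). In portal-poor against portal-rich spots 16 of 16 were higher at 0 h and 5 of 16 at 48 h, against 6.66% and 36.7% of all genes, so the 48 h count was near the background. At 48 h 4 of 16 were lower, against 31.7% of all genes.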

How the data were processed

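Visium RNA was measured in 11 mouse liver sections. Per the file headers and the submitters' processing notes, the authors aligned reads and counted UMIs with Space Ranger 1.0.0 against mm10, and the deposited values are raw UMI counts per gene and spot with no normalisation. From these, on-tissue spots were retained if they held 800 genes or more and mitochondrial UMIs made up no more than 20%, counts were summed per section, and the 11 sections were fitted together with edgeR 4.0.16 in R 4.3.3 (filterByExpr, TMM, robust quasi-likelihood, 14821 genes, common biological coefficient of variation 0.194). The comparison of portal-poor with portal-rich quintiles used 2 sums per section with section as block (13588 genes, the portal genes left out). All p-values are two-sided, Benjamini-Hochberg adjusted across every gene tested and called under 0.05; the fits were tested on simulated data. DESeq2 1.42.0, total-count scaling, other spot sets and leaving out each section served as alternatives. Exact permutation tests used scipy 1.17.1, after thinning to 5000 UMIs, which left out 1 to 260 spots of a section. Depth set the precision of the rarer members.

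The members and gene lists were chosen with earlier results of these data known. The text names the 9 members, up to 4 called genes per list and direction with the largest change among those averaging at least 1 CPM, and the 10 genes most like Glul, and other genes named (the zone values of Wnt2, Wnt9b, Rspo3 and Nkd1 among them) were chosen after their values were seen. Values of 1 gene of the pericentral list are not reported here. Coordinates come from the GENCODE annotation of GRCm38.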

Additional observations from a re-analysis of the deposited data

Results flagged for a closer look

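The contrast between portal-poor and portal-rich spots differed from that at 0 h, by the interaction term of the edgeR fit, in 19 of 27 tests of members. At 24 h the change in log2 contrast was -2.10 for Glul, -1.61 for Oat, -1.13 for Lhpp, -1.12 for Tbx3, -2.57 for Axin2 and -1.75 for Rnf43. Of these, Lhpp lost its call in 7 fits that left out a section, and Tbx3 and Axin2 lost theirs without either 24 h section (adjusted p = 0.111 to 0.125 and 0.0824 to 0.163). On total-count scaling Lhpp (-0.81, adjusted p = 0.116) and Tbx3 (-0.81, adjusted p = 0.0762) did not pass, and with deciles Tbx3 and Axin2 did not (adjusted p = 0.12 and 0.103), nor Tbx3 with DESeq2 (adjusted p = 0.0516). At 36 h it was -2.47 for Glul, -1.76 for Oat, -3.47 for Slc1a2, -1.40 for Tbx3 and -1.23 for Rnf43. Tbx3 did not pass without section A (adjusted p = 0.0795) or B (adjusted p = 0.144), nor Rnf43 without section B (-0.91, adjusted p = 0.0754) or on the central minus portal axis (-0.72, adjusted p = 0.109). Tbx3 also did not pass on total-count scaling, with deciles or on that axis (adjusted p = 0.0506, 0.208 and 0.181). At 48 h it was -1.52 for Glul, -1.30 for Oat, -3.37 for Slc1a2, -1.23 for Lhpp, -1.43 for Tbx3, -1.47 for Axin2, -1.16 for Lgr5 and -1.38 for Rnf43. Outside the members, Notum changed by -0.90, -1.35 and -1.93 at the 3 times, the first not passing in 4 fits that left out a section.

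The share of spots above the 0 h level of Oat had 1 section apart from the others of its time: A at 48 h held 1 of 3343 such spots and the other 3 sections held 0, so the gap divided by the range was 1. That value of 1 follows whenever only 1 section of a group holds any such spot, and here it rests on 1 spot. Of 23 groups of 4 sections looked at, 1 stood apart in this way. The rate of about 1 in 20 expected by chance does not hold for counts at this floor.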

How the results depend on the processing

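Glul, Oat, Slc1a2 and Lhpp against 0 h at all 3 times, and Axin2 and Lgr5 at 24 h and 36 h, were called under all 17 alternatives. Shallow counts limited Slc1a2 and Lgr5 at 24 h. Steps between injured times rested on few sections, and the causes of the changes below were not tested.

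On total-count scaling the median of all genes against 0 h was 0.37, 0.49 and 0.54 at 24 h, 36 h and 48 h, 7505 genes passed at 36 h against 0 h, and the share of calls that were higher went from 55.4, 57.5 and 52.7% to 80.4, 94.1 and 93.7%. Members called became 6 from 24 h to 48 h and 7 in the 36 h zone contrast. Signs turned at 36 h against 0 h for Rnf43 (0.43) and Znrf3 (0.42), at 48 h against 0 h for Lgr4 (0.14), Wnt2 (0.18), Notum (0.34) and Nkd1 (0.37), for Rnf43 from 24 h to 36 h (0.078), Lhpp from 36 h to 48 h (0.024) and Tbx3 from 24 h to 48 h (0.13). In the zone contrast they turned at 24 h for Slc1a2 (0.062), Axin2 (0.31), Rnf43 (0.18) and Znrf3 (0.36, change from 0 h 0.27), at 36 h for Slc1a2 (0.023) and Znrf3 (0.11, change 0.022), and at 48 h for Slc1a2 (0.23), Znrf3 (0.51, change 0.42) and Notum (0.042).

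With no filter on low counts Rnf43 was -0.0197 at 24 h, Znrf3 0.0031 in the 48 h zone contrast, and 0 members passed from 24 h to 36 h (edgeR, 1 at an unadjusted p under 0.05). In hepatocyte-retaining spots Rnf43 was 0.0063 at 36 h and Tbx3 0.046 from 24 h to 48 h, and 253 genes and 1 member passed from 36 h to 48 h. With only the 2 groups in the edgeR fit Rnf43 was -0.0096 at 24 h, 1 gene and 0 members passed from 24 h to 36 h (0 members unadjusted), and 0 genes and 0 members from 36 h to 48 h (2234 and 4 unadjusted). DESeq2 called 1224 genes from 36 h to 48 h and gave Znrf3 0.0067 in the 48 h zone contrast. With deciles in place of quintiles the zone values were, at 24 h, Slc1a2 2.55, Axin2 0.028 and Znrf3 0.018, at 48 h Slc1a2 0.77 and Znrf3 0.013, and the 36 h change for Lgr5 was 2.15. On the central minus portal axis they were, at 24 h, Slc1a2 0.89, Axin2 0.0801 and Rnf43 0.15, at 36 h Glul -0.068, and at 48 h Znrf3 0.23 (change 0.093) and Notum 0.53; 2789 genes passed at 36 h, and 2199 genes and 3 members for the 36 h change.

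Leaving out 1 section gave 2643 to 4880 genes at 36 h against 0 h, 450 to 3198 genes and 0 to 1 member from 24 h to 36 h, 45 to 1130 genes and 0 to 2 members from 36 h to 48 h, and 2480 to 5963 genes and 2 to 5 members from 24 h to 48 h. Zone contrasts gave 999 to 1937 genes at 0 h, 2496 to 4635 genes and 3 to 5 members at 24 h, and 2902 to 4922 genes and 1 to 5 members at 36 h. Changes from 0 h gave 1417 to 3099 genes and 3 to 7 members at 24 h, and 2215 to 3657 genes and 3 to 6 members at 36 h. Members whose sign turned ranged, against 0 h, from -0.16 to 0.20 (Rnf43, 24 h), -0.20 to 0.19 (Rnf43, 36 h), -0.21 to 0.14 (Znrf3, 36 h), -0.0038 to 0.18 (Axin2, 48 h) and -0.092 to 0.21 (Znrf3, 48 h). Between injured times they ranged from -0.026 to 0.29 (Oat), -1.12 to 0.15 (Tbx3) and -0.22 to 0.17 (Rnf43) from 24 h to 36 h, -0.29 to 0.21 (Lhpp) and -0.053 to 0.28 (Znrf3) from 36 h to 48 h, and -0.57 to 0.26 (Glul) and -0.55 to 0.73 (Tbx3) from 24 h to 48 h. Zone contrasts ranged from -1.20 to 0.17 (Axin2, 24 h), -0.57 to 0.50 (Znrf3, 24 h), -1.94 to 1.88 (Slc1a2, 36 h), -0.040 to 0.64 (Rnf43, 36 h), -0.56 to 0.030 (Znrf3, 36 h), -0.39 to 0.044 (Slc1a2, 48 h) and -0.16 to 0.11 (Znrf3, 48 h), and changes for Znrf3 from -0.60 to 0.47, -0.59 to 0.0018 and -0.19 to 0.079.

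The letters A and B recur at the injured times without a stated shared animal or slide, so they were not taken to pair sections. Deviations correlated by letter at -0.241 to 0.287. With 2 sections at 24 h and at 36 h, A and B deviate from their mean as mirror images, so both letters give 0.287 between these times. These values cannot tell whether a letter marks a shared animal or slide. With a replicate block edgeR called 82 genes and 0 members from 24 h to 36 h (1 member unadjusted), 0 genes and 0 members from 36 h to 48 h (1223 and 4 unadjusted), and 805 genes and 1 member from 24 h to 48 h. In the last comparison Slc1a2 (1.08, adjusted p = 0.245), Axin2 (2.10, adjusted p = 0.052), Rspo3 (adjusted p = 0.0519), Wnt9b (0.067), Notum (0.0896) and Nkd1 (0.0965) no longer passed.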

Other observations

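Counts are given for 10 other beta-catenin target genes, known mainly from tumours and other tissues. Higher than at 0 h at 24 h, 36 h and 48 h were 4, 5 and 7, against 23.1%, 16.8% and 23.3% of all genes. Each time 1 was lower, against 18.6%, 12.4% and 20.9% of all genes. The 1 was Sp5, a transcription factor, which stood at 1.54 ± 0.478 CPM in the 0 h sections (n = 3) and at 0.436 ± 0.275 CPM in those of 48 h (n = 4), a log2 change of -1.80 ± 0.58 (adjusted p = 0.028) that did not pass in 3 of the 11 fits that left out a section, on total-count scaling (-1.28, adjusted p = 0.0781) or in hepatocyte-retaining spots (-1.66, adjusted p = 0.0554). Cd44, an adhesion receptor, rose from 9.85 to 45.3 CPM at 48 h (log2 2.20 ± 0.21, adjusted p = 4.81e-05), and Ccnd1, a cyclin of the G1 phase, from 19.4 to 70.7 CPM (log2 1.87 ± 0.36, adjusted p = 0.0022). Birc5, a gene of dividing cells, rose from 0.878 to 27.5 CPM (log2 5.01 ± 0.41, adjusted p = 2.88e-05). Sox9 was highest at 24 h, at 15.8 ± 8.72 CPM (n = 2) against 2.31 CPM at 0 h (log2 2.77 ± 0.35, adjusted p = 0.000247). Fosl1, an AP-1 subunit, had 1 UMI over the 0 h sections and stood at 16.0 CPM at 24 h and 2.27 CPM at 48 h. These genes also answer to pathways other than Wnt, and other cells in the spots express several of them; their part was not tested.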
